A study of Homo sapiens with 2 samples.

Results

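The genes described here are NFE2L2, which encodes the transcription factor NRF2, its inhibitor KEAP1, and 7 of its classic target genes. They are the 9 rows, of 58735 in each of 2 gene count tables, whose Ensembl identifier carries one of these symbols in GENCODE release 44. All 9 were present in both tables and all had at least 1 count in each. The symbols were chosen by pathway and not by their values, though earlier results of these data were known at the time.

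One table came from a Nanopore direct RNA library, in which native polyadenylated RNA strands are read without amplification, and the other from an Illumina library made with a stranded TruSeq mRNA kit. Both libraries came from MCF10a-Snail-ER cells, a derivative of the non-tumorigenic mammary epithelial line MCF10a that stably expresses the repressor Snail fused to the estrogen receptor. Tamoxifen had been added at 100 nM for 1 day so that an epithelial-to-mesenchymal transition would begin, in medium with horse serum, EGF, hydrocortisone, cholera toxin, insulin and L-glutamine. There was no untreated library and 1 library per platform, so the data allow a comparison of these libraries from equally labelled cells and say nothing of an effect of Snail or tamoxifen on these genes. The labels do not say whether both were made from the same RNA, and the column headings of the tables carry different tags that no label explains. No value has a replicate, and the intervals and tests given cover only the counting error within this pair of libraries.

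The totals were 403235 counts by Nanopore and 191741714 by Illumina. A single Nanopore count was worth 2.48 counts per 1000000 (CPM), and 3 counts, used as the limit of detection, 7.44 CPM; for Illumina these values were 0.00522 and 0.0156 CPM. The 5 markers of basal mammary epithelium were detected in both libraries, from KRT5 at 1686 CPM by Nanopore and 1447 CPM by Illumina down to TP63 at 12.4 and 33.2 CPM. The blood markers PTPRC and CD3E had no Nanopore count and 2 and 0 Illumina counts, and the endothelial marker CDH5 had 0 and 11. The endothelial marker PECAM1 had 0 Nanopore counts and 5.07 CPM by Illumina. Of the fibroblast markers DCN had 24.8 and 26.5 CPM, COL1A1 0 and 4.93 and COL1A2 2.48 and 0.772. The luminal markers ran from KRT8 at 389 and 209 CPM and KRT18 at 280 and 322 down to GATA3 at 9.92 and 12.9 and EPCAM at 7.44 and 4.02. The mesenchymal marker VIM, at 1736 and 1828 CPM, was the highest of all markers checked, though by Nanopore its 700 counts were close to the 680 of KRT5. FN1 had 54.6 and 263 CPM and CDH2 19.8 and 24.7.

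NRF2 is a transcription factor that KEAP1 holds in the cytoplasm and presents to a CUL3 ubiquitin ligase for degradation. Oxidants and electrophiles modify cysteines of KEAP1, NRF2 is then spared and enters the nucleus, and with a small MAF protein it binds antioxidant response elements near its targets. Those targets supply cystine, glutathione, reduced thioredoxin and quinone reduction, and in epithelial cells they set much of the basal defence against oxidants.

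To show what such elements look like at these genes, the core TGACNNNGC was searched on both strands of the RefSeq windows (GRCh38.p14) from 250 bases before to 50 bases after each gene start. RefSeq windows were matched for 8 of the 9 genes, and SLC7A11 was not among them. At least 1 match lay in a window of GCLM, KEAP1 and TXNRD1. Sequence outside the windows was not searched, so the lack of a match does not show that a gene has no element. Of all 27305 genes with a window, 16.1% had a match, and of all 35116 windows 13.3%. The looser core TGANNNNGC, which takes in every match of the first, matched in 5 of the 8 genes and in 47.1% of all genes. The counts below come from whole genes and do not show which start was used, so a match is a description of the sequence and not of binding. The second KEAP1 start also had TGACACGGC on the gene's strand, 54 to 46 bases before the start. The first TXNRD1 start also had GCTCCGTCA, a match on the opposite strand, 8 to 0 bases before the start. These matches are not marked below. The stretches below run 5′ to 3′ along the gene's strand, with the marked match in capitals. Those of GCLM, of KEAP1 and of the second TXNRD1 start hold the marked core on the opposite strand and so print its reverse complement.
GCLM, chr1:93909436-93909484, minus strand, match 34 to 26 bases before the start: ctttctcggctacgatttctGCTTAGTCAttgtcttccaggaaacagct
KEAP1, second start, chr19:10502774-10502822, minus strand, match 31 to 23 bases before the start: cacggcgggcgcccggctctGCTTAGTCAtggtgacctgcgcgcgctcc
TXNRD1, first start, chr12:104215660-104215708, plus strand, match 99 to 91 bases before the start: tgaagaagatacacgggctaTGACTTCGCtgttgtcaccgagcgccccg
TXNRD1, second start, chr12:104286910-104286958, plus strand, match 102 to 94 bases before the start: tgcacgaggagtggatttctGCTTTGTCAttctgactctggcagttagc

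Levels were compared between genes as Nanopore CPM, where a read is 1 RNA strand, and as Illumina counts per base of the Ensembl canonical transcript, scaled to a total of 1000000 (TPM). TXN was the highest of the 9 genes in both libraries and SLC7A11 the lowest. By Nanopore the order was TXN, TXNRD1, NQO1, NFE2L2, GCLC and SRXN1, then KEAP1 and GCLM with equal counts, then SLC7A11. The 95% Poisson intervals of neighbours did not overlap down to NFE2L2, those of NFE2L2, GCLC, SRXN1, KEAP1 and GCLM did, and that of SLC7A11 lay below the rest. By Illumina TPM the order was TXN, NQO1, NFE2L2, SRXN1, TXNRD1, KEAP1, GCLC, GCLM and SLC7A11, and no neighbouring intervals overlapped. The main change of place was TXNRD1, number 2 of 9 by Nanopore and number 5 by Illumina. Together the 9 genes made up 0.188% of all Nanopore counts and 0.145% of all Illumina counts.

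**Figure D1:**
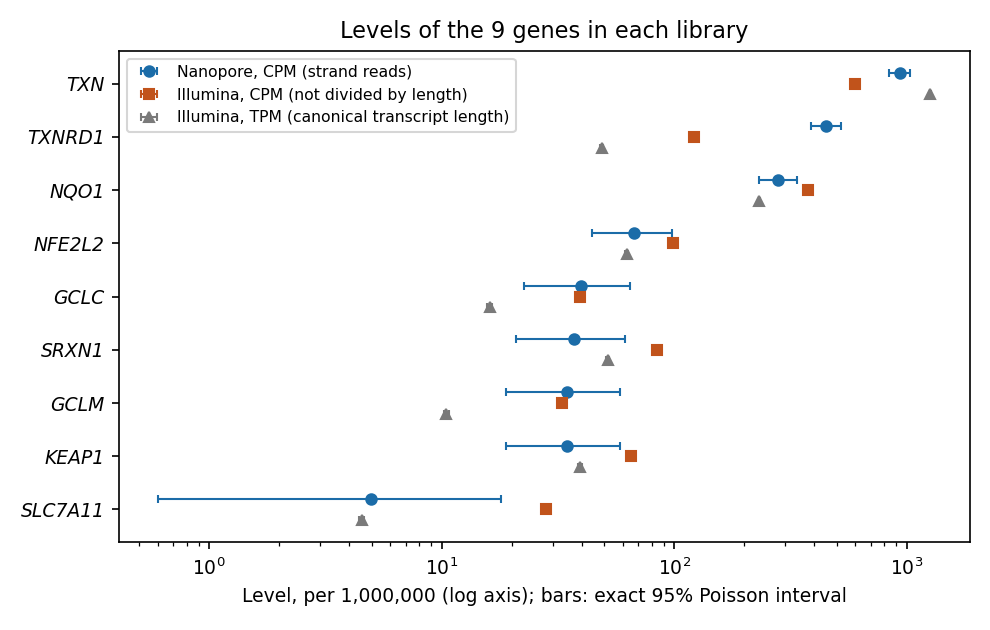
Levels of the 9 genes on a log axis, as Nanopore CPM (circles), Illumina CPM (squares) and Illumina TPM by canonical transcript length (triangles), 1 library each, with exact 95% Poisson intervals. TXN is highest on every scale and SLC7A11 lowest, and TXNRD1 has the widest gap between Nanopore (451 CPM) and Illumina (48.8 TPM).

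Ratios between the libraries are given as log2(Nanopore CPM + 1) minus log2(Illumina CPM + 1). A two-sided exact binomial test of the 2 counts of a gene, given the library totals, was run for the 12414 genes whose CPM averaged 5 or more over the libraries, with Benjamini-Hochberg adjustment over all of them. A gene was called at an adjusted p under 0.05. All 9 genes passed the filter on mean CPM. TXN and TXNRD1 were called higher by Nanopore, 2 of 9 against 20.2% of all genes tested. KEAP1, SLC7A11, SRXN1 and NQO1 were called higher by Illumina, 4 of 9 against 27.2%. NFE2L2, GCLC and GCLM were not called. The median ratio of the 9 genes was −0.43, and that of all genes tested was −0.42. With a 4-fold ratio required as well, 0 of the 9 were higher by Nanopore (12.9% of all genes) and 1, SLC7A11, was higher by Illumina (7.31%).

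Illumina fragments each RNA, so its counts grow with transcript length, and the ratio was therefore also taken against Illumina TPM. On that scale 3 of the 9 genes were called higher by Nanopore, GCLC, GCLM and TXNRD1, against 31.4% of the 12350 genes with a length. TXN alone was called higher by Illumina, 1 of 9 against 9.86%. The other 5 genes were not called. The median ratio was 0.11, against 0.48 for all genes tested. With the 4-fold rule TXNRD1 remained, 1 of 9 higher by Nanopore against 15.6% of all genes, and 0 of 9 were higher by Illumina, against 2.53%.

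**Figure D2:**
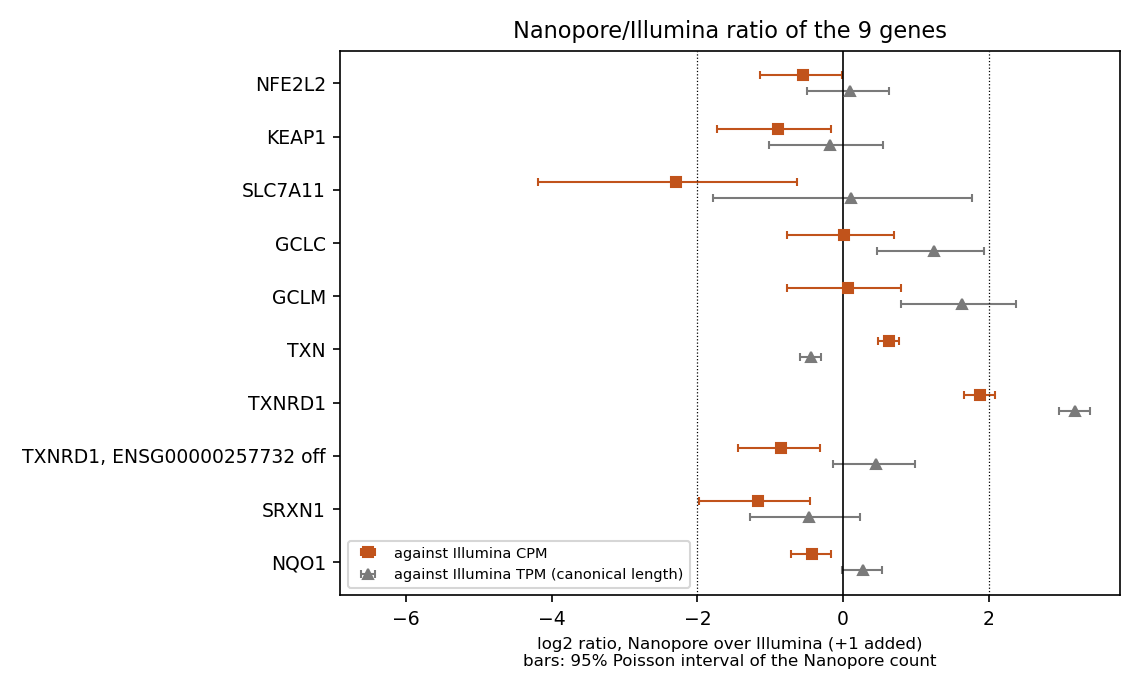
The log2 ratio of Nanopore over Illumina for the 9 genes, with 1 added to each level, against Illumina CPM (squares) and Illumina TPM by canonical length (triangles); bars are the 95% Poisson interval of the Nanopore count and dotted lines mark 4-fold. TXNRD1 is at 1.88 and 3.18 as counted, and at −0.85 and 0.45 when the counts of ENSG00000257732, a gene within its body, are taken off. This subtraction lowers the ratio by construction.

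The switch itself, NRF2 and its inhibitor, was measured at moderate levels in both libraries. NFE2L2 (ENSG00000116044, chromosome 2, 177218667 to 177392756, minus strand, hg38) had 27 Nanopore counts, 67.0 CPM (95% Poisson interval 44.1 to 97.4), and 18913 Illumina counts, 98.6 CPM or 62.5 TPM. Its ratio was −0.55 against Illumina CPM (adjusted p = 0.0821, exact binomial test) and 0.10 against TPM (adjusted p = 0.914, exact binomial test). KEAP1 (ENSG00000079999, chromosome 19, 10486125 to 10503558, minus strand) had 14 Nanopore counts, 34.7 CPM (19.0 to 58.3), and 12508 Illumina counts, 65.2 CPM or 39.4 TPM. Against TPM by canonical length neither gene was called. With union length NFE2L2 was called higher by Nanopore, at 1.85 (adjusted p = 1.58e-07, exact binomial test), and with mean transcript length KEAP1 was called lower, at −0.94 (adjusted p = 0.0229, exact binomial test). On CPM KEAP1 was lower by Nanopore, at −0.89 (adjusted p = 0.0300, exact binomial test), and the call was lost with TMM scaling of the libraries (adjusted p = 0.0604, exact binomial test) and against TPM by canonical length (−0.18, adjusted p = 0.900, exact binomial test).

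The NFE2L2 transcript stood at 1.93 times that of KEAP1 by Nanopore (exact 95% interval 0.976 to 3.98). Per canonical length the Illumina ratio was 1.59, inside that interval. The Illumina ratio depended on which transcripts set the length. NFE2L2 has 65 annotated transcripts and a union of exons of 14975 bases, against 2446 for the canonical transcript, and with union length the ratio turned to 0.361.

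The glutathione branch held the lowest of the 9 genes in both libraries, SLC7A11, and by Illumina TPM the lowest 3. SLC7A11 is the cystine and glutamate antiporter that brings in cystine, and SLC3A2 is the heavy chain that carries it to the membrane. SLC7A11 (ENSG00000151012, chromosome 4, 138164097 to 138242349, minus strand) had 2 Nanopore counts, 4.96 CPM (0.601 to 17.9), below the 7.44 CPM of 3 counts, and 5403 Illumina counts, 28.2 CPM or 4.53 TPM. Its ratio was −2.29 against Illumina CPM (interval −4.19 to −0.63, adjusted p = 0.00526, exact binomial test) and 0.11 against TPM (−1.79 to 1.77, adjusted p = 1, exact binomial test). Its canonical transcript, at 9645 bases, was the longest of the 9. SLC7A11 stood at 0.0247 of SLC3A2 by Nanopore (exact interval 0.00294 to 0.0921, from 2 and 81 counts) and at 0.0265 by Illumina per canonical length. The light chain was thus the scarcer transcript of the pair in both libraries. The opposite-strand gene SLC7A11-AS1 shares 865 exonic bases with SLC7A11 and also had 2 Nanopore counts, with 41 by Illumina. Whether its reads were also counted for SLC7A11 was not tested, and no counts were taken off.

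Glutamate-cysteine ligase, the rate-limiting enzyme of glutathione synthesis, has a catalytic subunit from GCLC and a modifier subunit from GCLM. GCLC (ENSG00000001084, chromosome 6, 53497341 to 53616970, minus strand) had 16 Nanopore counts, 39.7 CPM (22.7 to 64.4), and 7540 Illumina counts, 39.3 CPM or 16.1 TPM. GCLM (ENSG00000023909, chromosome 1, 93885199 to 93909456, minus strand) had 14 Nanopore counts, 34.7 CPM (19.0 to 58.3), and 6326 Illumina counts, 33.0 CPM or 10.5 TPM. Neither subunit was called on CPM, and both were called higher by Nanopore on TPM by canonical length. Against Illumina CPM the ratio was 0.01 for GCLC (interval −0.77 to 0.70) and 0.07 for GCLM (−0.77 to 0.80), so moderate differences either way remain possible. Against TPM it was 1.25 for GCLC (adjusted p = 0.00718, exact binomial test) and 1.64 for GCLM (adjusted p = 0.00101, exact binomial test). With mean transcript length both calls ended, at 0.52 (adjusted p = 0.327, exact binomial test) and 0.96 (adjusted p = 0.0643, exact binomial test). The opposite-strand gene GCLC-AS1 had 7 Nanopore and 8 Illumina counts, against 16 and 7540 for GCLC. Whether its reads were also counted for GCLC was not tested, and no counts were taken off here. GCLC stood at 1.14 times GCLM by Nanopore (exact interval 0.523 to 2.53) and at 1.54 times by Illumina per canonical length, inside that interval. With union length the Illumina ratio was 0.750, also inside it, so these data do not order the subunits.

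**Figure D3:**
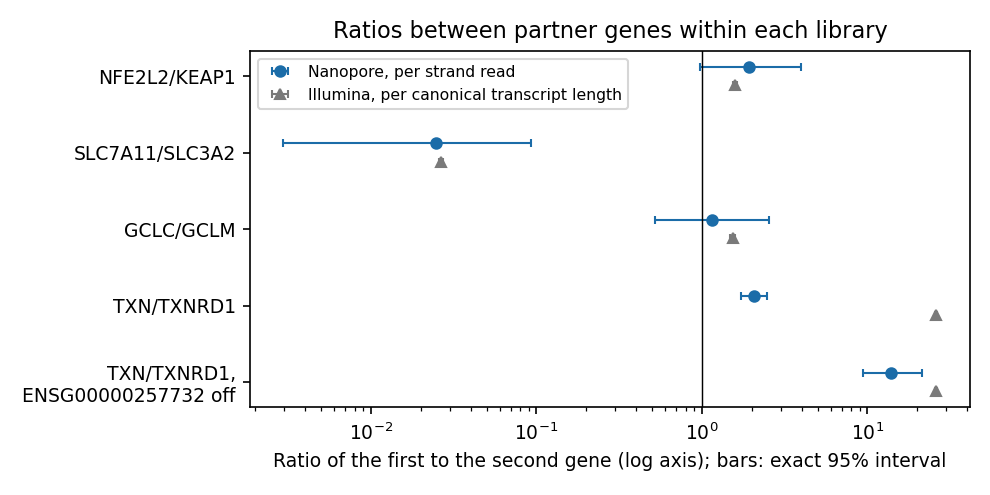
Ratio of the first to the second gene of 4 pairs within each library, on a log axis, by Nanopore counts (circles) and by Illumina counts per canonical transcript length (triangles), with exact 95% intervals; the lowest row takes the counts of ENSG00000257732, a gene within TXNRD1, off those of TXNRD1 in both libraries. In 3 pairs the Illumina ratio lies inside the Nanopore interval, and for TXN/TXNRD1 it is 25.9 against 2.07.

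The thioredoxin branch held both the gene with the highest level of the 9, TXN, and the gene with the largest ratio against TPM, TXNRD1. Thioredoxin, from TXN, reduces disulfides in other proteins, and thioredoxin reductase 1, a selenoprotein from TXNRD1, restores it with NADPH. TXN (ENSG00000136810, chromosome 9, 110243810 to 110256507, minus strand) had 376 Nanopore counts, 932 CPM (841 to 1032), and 115490 Illumina counts, 602 CPM or 1267 TPM. It ranked 174 of all genes by Nanopore and 136 by Illumina TPM. Its canonical transcript, at 737 bases, was the shortest of the 9. The ratio was 0.63 against Illumina CPM (interval 0.48 to 0.78, adjusted p = 3.55e-14, exact binomial test) and −0.44 against TPM (−0.59 to −0.30, adjusted p = 3.74e-09, exact binomial test). The direction for TXN therefore turned with division by length, and it did so with union and mean transcript length too.

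TXNRD1 (ENSG00000198431, chromosome 12, 104215779 to 104350307, plus strand) had 182 Nanopore counts, 451 CPM (388 to 522), and 23316 Illumina counts, 122 CPM or 48.8 TPM. The ratio was 1.88 against Illumina CPM (adjusted p = 4.28e-46, exact binomial test) and 3.18 against TPM (adjusted p = 3.97e-105, exact binomial test). On the length-scaled measure it was the only one of the 9 past 4-fold. By Nanopore TXN stood at 2.07 times TXNRD1 (exact interval 1.73 to 2.48), and by Illumina per canonical length at 25.9 times.

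A second count at the TXNRD1 locus moved with this result. The long non-coding RNA gene ENSG00000257732 (chromosome 12, 104262314 to 104280722, minus strand) lies within TXNRD1 on the opposite strand and shares no exonic base with it in the annotation. It had 155 Nanopore counts, 85.2% of those of TXNRD1, and 8 Illumina counts, 0.0343% of them. With these counts taken off in both libraries, TXNRD1 was left with 27 Nanopore counts, 67.0 CPM (44.1 to 97.4). Its ratio was then −0.85 against Illumina CPM (interval −1.44 to −0.32, adjusted p = 0.00279, exact binomial test), so the direction turned. Against TPM it was 0.45 (−0.14 to 0.98, adjusted p = 0.246, exact binomial test), no longer called. TXN then stood at 13.9 times TXNRD1 by Nanopore (exact interval 9.42 to 21.4) and at 26.0 times by Illumina per canonical length, so the gap between the libraries narrowed. This subtraction, chosen after the values were seen, assumes that every read of the non-coding gene was also counted for TXNRD1, which gene counts cannot show. It takes off most of the Nanopore counts and few of the Illumina counts. The fall of the ratio and the narrower gap therefore follow from the subtraction itself and are not a test of that assumption.

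Across the annotation, 216 pairs had a gene with at least 10 Nanopore counts lying wholly within another gene with no shared exonic base. The outer gene had at least as many Nanopore counts as the inner one in 205 pairs (94.9%), and at least as many Illumina counts in 85 of the same pairs (39.4%). TXNRD1 was such an outer gene for ENSG00000257732, with the higher count in both libraries. The pairs were picked by the Nanopore counts of the inner gene alone, and no set picked by Illumina counts was made. These shares are therefore not a like comparison of the libraries. How reads in introns were assigned is not given in the sources used here, and whether reads were counted for both genes of a pair was not tested.

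SRXN1 encodes sulfiredoxin, which restores peroxiredoxins that have been over-oxidised. The gene (ENSG00000271303, chromosome 20, 646615 to 653200, minus strand) had 15 Nanopore counts, 37.2 CPM (20.8 to 61.4), and 16236 Illumina counts, 84.7 CPM or 51.9 TPM. It was lower by Nanopore against Illumina CPM, at −1.17 (adjusted p = 0.00133, exact binomial test), and not called against TPM, at −0.47 (adjusted p = 0.373, exact binomial test), or with mean transcript length. With union length it was called lower, at −1.26 (adjusted p = 0.000377, exact binomial test). SRXN1 has 1 annotated transcript, of 2528 bases on every length measure, so its ratios against TPM differ only through the scaling over all genes. A second protein-coding gene, ENSG00000270299 (646626 to 675800, same strand), shares 2292 exonic bases with SRXN1 and 90.6% of its 50-base words. That gene had 15 Nanopore and 15983 Illumina counts. With counts this close in both libraries, the values of SRXN1 and of the longer gene cannot be told apart.

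NQO1 encodes a quinone reductase that uses NADH or NADPH and is among the most used readouts of NRF2 activity. The gene (ENSG00000181019, chromosome 16, 69706996 to 69726668, minus strand) had 113 Nanopore counts, 280 CPM (231 to 337), and 72512 Illumina counts, 378 CPM or 232 TPM. It stood at number 3 of the 9 by Nanopore and number 2 by Illumina TPM. Its ratio was −0.43 against Illumina CPM (adjusted p = 0.00309, exact binomial test) and 0.27 against TPM (−0.01 to 0.53, adjusted p = 0.122, exact binomial test). The long non-coding RNA gene ENSG00000261602 lies within NQO1 on the opposite strand, shares 575 exonic bases with it, and had 20 Nanopore and 2783 Illumina counts, 17.7% and 3.84% of those of NQO1.

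Other genes also overlap these loci. GCLC-AS1, opposite GCLC, had 7 Nanopore and 8 Illumina counts, 43.8% and 0.106% of those of GCLC. SLC7A11-AS1, opposite SLC7A11, had 2 and 41, which is 100% and 0.759%. ENSG00000222043, which shares 190 bases with the canonical NFE2L2 transcript on the opposite strand, had 7 and 86, or 25.9% and 0.455%. The opposite-strand non-coding genes ENSG00000271825 at NFE2L2 and LINC01564 at GCLC had 0 Nanopore and 3 Illumina counts each. At NFE2L2 the protein-coding genes HNRNPA3 (114 and 161035 counts) and AGPS (12 and 12294) overlap only non-canonical exons of GENCODE release 44, and their shares were higher by Illumina. GCLM and TXN overlap no gene, and KEAP1 overlaps a single non-coding gene with 0 Nanopore and 16 Illumina counts.

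**Figure D4:**
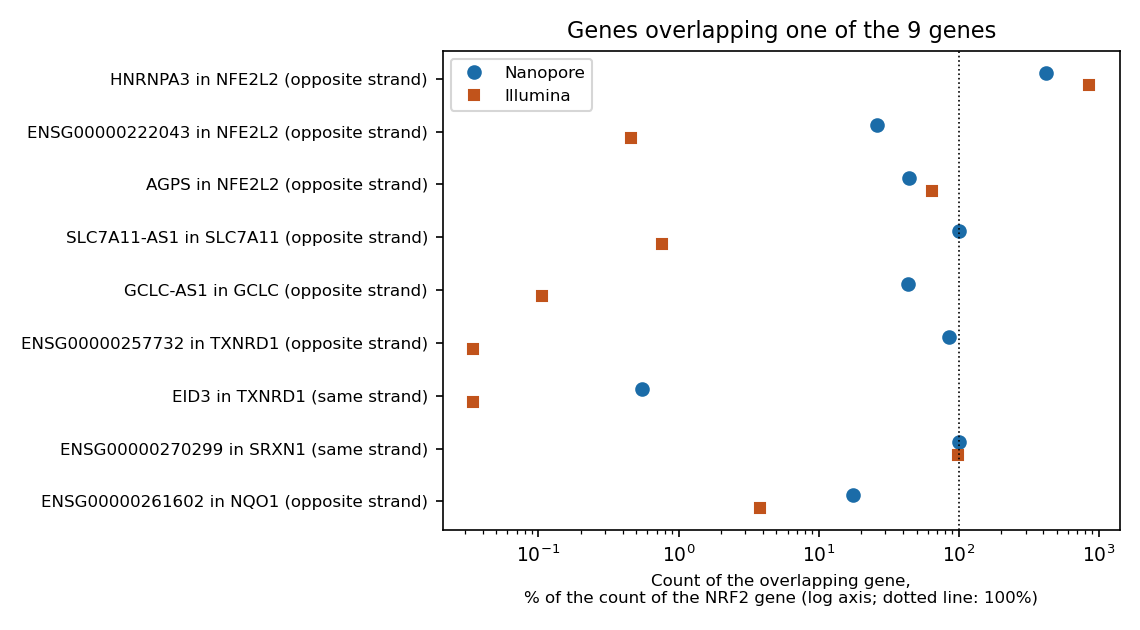
Count of each reported overlapping gene with at least 1 Nanopore count, as a percent of the count of the NRF2 gene it overlaps, by Nanopore (circles) and Illumina (squares), on a log axis. The 5 opposite-strand non-coding genes shown, which are those with a Nanopore count, reach 17.7 to 100% by Nanopore and 0.0343 to 3.84% by Illumina. Genes with Illumina counts only are left out, so a higher Nanopore share is partly built in. The 100% rests on 2 Nanopore counts each for SLC7A11-AS1 and SLC7A11.

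Other genes of the pathway were taken from 3 lists of 42 genes in all, of which 39 passed the filter on mean CPM. Of the 9 genes that control NRF2 or share its binding sites, the test called 0 higher by Nanopore and 3 lower on CPM, with a median ratio of −0.77, against 20.2% and 27.2% of all genes and a median of −0.42. Against TPM, 1 was higher by Nanopore and 0 by Illumina, against 31.4% and 9.86% of all genes, with a median of −0.04 against 0.48. SQSTM1, an autophagy receptor that binds KEAP1, had 70 Nanopore counts, 174 CPM, and 178 TPM by Illumina. RBX1, the RING subunit of the CUL3 ligase, had 61 counts, 151 CPM, and 180 TPM. NFE2L1, a relative of NRF2, had 28 counts, 69.4 CPM, and 82.6 TPM. SQSTM1 and RBX1 were thus higher than NFE2L2 in both libraries, the Nanopore level of NFE2L1 lay inside the interval of NFE2L2, and none of the 3 was called against TPM. The repressor BACH1 and the small MAF genes MAFF, MAFG and MAFK were scarce by Nanopore, with 4, 11, 3 and 2 counts.

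Of 21 further NRF2 targets, 18 were tested, with 5 called higher by Nanopore and 8 lower on CPM, against 20.2% and 27.2% of all genes, and a median of −0.19 against −0.42. Against TPM the counts were 6 and 4, against 31.4% and 9.86%, with a median of 0.15 against 0.48. The ferritin heavy chain gene FTH1 was the highest on CPM in both libraries, with 1383 Nanopore counts, 3430 CPM, and 1635 TPM by Illumina, a ratio of 1.43 on CPM and 1.07 on TPM. FTL, the ferritin light chain, had 452 counts, 1121 CPM and 2037 TPM, above FTH1 on TPM, and TKT, transketolase of the pentose phosphate pathway, had 261 counts, 647 CPM and 425 TPM. ABCC1, an exporter of glutathione conjugates, was the only one 4-fold higher by Illumina on CPM, with 6 counts, a ratio of −2.22 (adjusted p = 2.16e-06, exact binomial test) that became −0.21 against TPM. AKR1C1, an aldo-keto reductase, was the only one 4-fold higher by Nanopore against TPM by canonical length, with 37 counts and a ratio of 2.97. With mean transcript length, 0 pathway genes were 4-fold higher by Nanopore. The canonical transcript of AKR1C1 has 6543 bases, against a mean of 2299, and its ratio on CPM was 0.99. AKR1C2 is known as a close relative in sequence, and how reads were split between them was not tested. The untested genes, named after their values were seen, were AKR1B10 and GPX2, with no Nanopore count, and OSGIN1, with 1. HMOX1, which encodes haem oxygenase 1, was low, with 5 Nanopore counts, 12.4 CPM, and 5.01 TPM.

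All 12 partners in the glutathione and thioredoxin systems were tested. On CPM 2 were called higher by Nanopore and 2 lower, against 20.2% and 27.2% of all genes, with a median of −0.07 against −0.42. Against TPM the counts were 2 and 3, against 31.4% and 9.86%, with a median of −0.14 against 0.48. GPX1, a glutathione peroxidase, had 285 Nanopore counts, 707 CPM, and 423 TPM by Illumina. PRDX6, a peroxiredoxin, had 267 counts, 662 CPM and 682 TPM, and was not called on either scale. GPX4, which reduces lipid peroxides, had 112 counts, 278 CPM and 212 TPM. GPX1 and GPX4 were called higher by Nanopore on both scales, with CPM ratios of 1.52 and 1.25. Of the mitochondrial pair, TXN2 had 62.0 CPM by Nanopore, far below the cytosolic TXN, and TXNRD2 had 47.1 CPM. TXNRD1 had 451 CPM as counted, and 67.0 CPM (44.1 to 97.4) with the counts of ENSG00000257732 taken off.

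**Figure D5:**
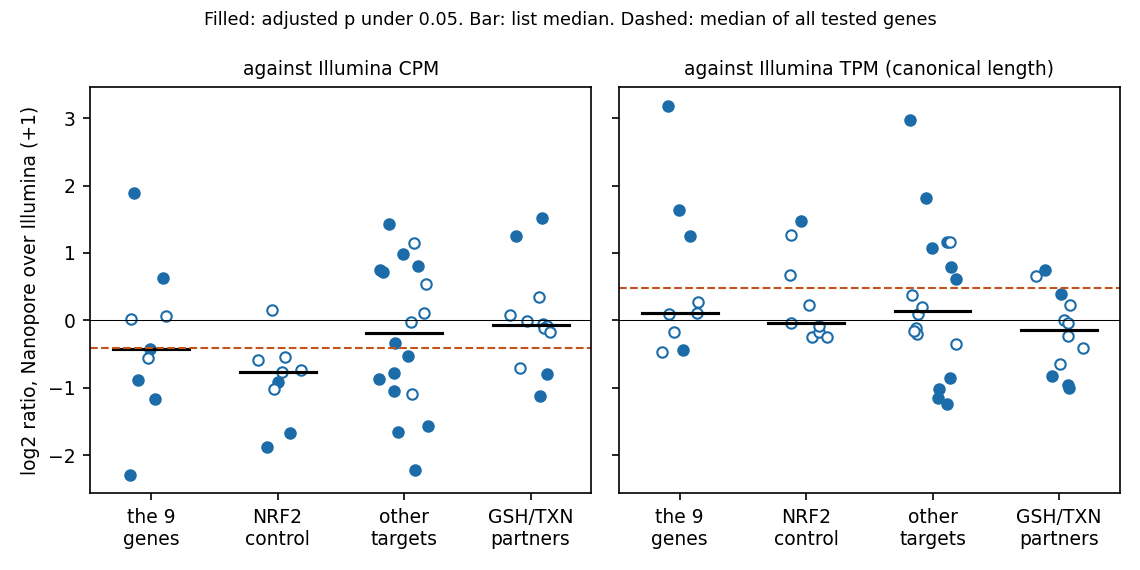
The log2 ratio of Nanopore over Illumina for each tested gene of the 9 and of the 3 pathway lists, against Illumina CPM (left) and TPM (right); filled points had an adjusted p under 0.05, bars are list medians and the dashed line is the median of all tested genes (−0.42 and 0.48). The medians of the 9 genes are −0.43 and 0.11, and genes of every list lie on both sides of 0.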

How the data were processed

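Gene counts from 1 Nanopore direct RNA and 1 Illumina library were used, grouped by the labels' titles. The authors deposited whole-number counts per Ensembl gene, not normalized. Per the submitters' processing notes, minimap2 2.11-r797, HISAT2 2.1.0, featureCounts and hg38 were used; options, strand setting, annotation release and the treatment of overlapping or multiply mapped reads are not given in the sources used here. Gene names, coordinates and lengths were taken from GENCODE release 44 (hg38), which matched 58207 of 58735 identifiers and may differ from the authors' release. Counts were scaled to CPM, or for Illumina to TPM by canonical transcript length, with a pseudocount of 1. With 1 library per platform no edgeR model could be fitted, so an exact binomial test with Benjamini-Hochberg adjustment was run over all genes whose CPM averaged 5 or more (scipy 1.17.1); it compares these libraries only. Intervals are exact 95% Poisson intervals, or exact binomial intervals for ratios of 2 counts. They cover counting error only, and the limits of a ratio to Illumina treat the Illumina count as fixed. Shared sequence was measured as the 50-base words of canonical transcripts found in another gene's transcripts. Named genes were the 9, pathway genes called with 4-fold or among the 3 with most Nanopore counts in their list, overlapping genes with at least 10 Nanopore counts, and genes of at least 5 CPM with no Nanopore count, of which there were none; others are named for their role. Some genes overlapping these loci are not reported here. No genes of like pattern are named, since 2 libraries give 1 ratio per gene. The members and lists were chosen with earlier results of these data known. Alternatives were TMM (edgeR 4.0.16) and median-ratio scaling, other filters and pseudocounts, other lengths, Illumina counts thinned to the Nanopore total (median of 20 draws), and genes without overlap.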

Additional observations from a re-analysis of the deposited data

How the results depend on the processing

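No paired analysis was possible because each platform has 1 library. Limits include the Nanopore depth, with 2 to 27 counts for 6 of the 9 genes, the length assigned to each gene, and the assignment of reads where genes overlap. Of the 9 genes, 2 were called higher by Nanopore and 4 by Illumina, 0 and 1 with 4-fold; median-ratio scaling gave 2 higher by Illumina and 1 4-fold higher by Nanopore. The 4-fold call by Illumina (SLC7A11) became 0 at a mean of at least 20 CPM, which leaves that gene out, with a pseudocount of 5, and after thinning. Thinning also gave a median of 2 called higher by Illumina per draw. By the median adjusted p of the 20 draws, KEAP1, SLC7A11, SRXN1 and NQO1 each lost the call. Canonical length gave 1 higher by Illumina, and 1 and 0 with 4-fold; union length gave 4 and 2, then 1 and 0; mean transcript length gave 1 and 2, then 1 and 0. Among genes without overlap only GCLM and TXN remain, with 1 call by Nanopore and 0 by Illumina, the latter also 0 with 4-fold. Over all genes tested the called shares also moved, from 20.2% and 27.2% on CPM to 31.4% and 9.86% with canonical length. With 4-fold they went from 12.9% and 7.31% to 15.6% and 2.53%. For the other alternatives the share over all genes is not given here. The changes in these counts and in those below therefore cannot be read as particular to these genes. Of the pathway lists, 7 were higher by Nanopore and 13 by Illumina, 0 and 1 with 4-fold. A pseudocount of 5 gave 0 for the last; canonical length gave 7 higher by Illumina, then 1 and 0; union length gave 12 higher by Nanopore, then 1 and 0; genes without overlap gave 2 and 6, with 0 for 4-fold by Illumina; thinning gave 4 and 8.

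Directions turned for NFE2L2 (main −0.55) at 0.10, 1.85 and 0.49 and for TXN (0.63) at −0.44, −0.79 and −0.28 with canonical, union and mean length. With canonical length they also turned for SLC7A11 (0.11) and NQO1 (0.27), with thinning for GCLC (−0.085, from 0.01), and for TXNRD1 at −0.85 with the counts of ENSG00000257732 taken off, an alternative chosen after seeing the data. TMM raised the ratio of scaled levels by 0.088 and median-ratio scaling by 0.13; neither turned a direction among the 9, and KEAP1 lost its call under both and without a filter, NQO1 under median-ratio scaling. With union, mean and no length, the Illumina ratio of TXN to TXNRD1 (25.9) became 32.9, 13.0 and 4.95, and that of SLC7A11 to SLC3A2 (0.0265) became 0.0897, 0.0443 and 0.135. That of NFE2L2 to KEAP1 (1.59) became 0.361, 0.701 and 1.51. For GCLC to GCLM (1.54), union length gave 0.750 and no length 1.19. The looser core TGANNNNGC matched in 5 genes in place of 3. Another length alters the pair ratios only through the lengths of both genes, and the ratios between libraries also through the scaling over all genes. The cause of other changes was not tested.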
